A study of Homo sapiens with 18 samples.

Results

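The 10 genes described here act on ceramide, and they were followed through 18 RNA Seq libraries of LNCaP and C4-2 prostate cancer cells. They were CERS2, CERS6, DEGS1, CERT1, SGMS1, SGMS2, SMPD1, UGCG, CERK and SPHK1, each found as 1 Ensembl gene among the 60675 genes counted. The set was proposed because CERK moved in opposite directions in the 2 lines when KDM1A and KDM7A were knocked down. The CERK values in that contrast are therefore given as a description, with no test. The other 9 genes belong to the same pathway.

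LNCaP is an androgen-dependent prostate cancer line, and C4-2 is an androgen-independent line derived from it. Each line gave 3 libraries from each of 3 groups, and all cells were in medium with charcoal-stripped serum according to the labels. Cells of the first group had non-targeting siRNA (siScr) and vehicle. Those of the second had siScr and 1 nM of the synthetic androgen R1881 for 72 h. Those of the third had the same R1881 treatment and siRNA pools to KDM1A and to KDM7A together, which is called dual knockdown here. KDM1A and KDM7A are histone lysine demethylases. As a model the series has 1 line and its own derivative, pooled siRNAs, no library analysed here with either gene knocked down alone, and none with the knockdown and vehicle.

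Ceramide is the hub of sphingolipid metabolism. It is built in the endoplasmic reticulum from serine and fatty acyl chains or released from sphingomyelin, and is then passed on to sphingomyelin, glucosylceramide, ceramide 1-phosphate or sphingosine. Ceramide is known for roles in growth arrest and cell death, whereas sphingosine 1-phosphate and ceramide 1-phosphate are known as survival and migration signals.

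Total counts per library ran from 3182604 to 20154243, with a median of 18117641. C4-2 siScr vehicle replicate 3 had the lowest total, and the next lowest library had 10485096. C4-2 siScr vehicle replicate 3 and C4-2 dual knockdown replicate 1 stood apart from the others of their groups, with a chi-square per gene of 15.8 to 18 against them, where all other replicate pairs gave 2.55 to 11. The 3 C4-2 vehicle libraries are C4-2 by title and LNCaP by their cell line label. The title was used to group them, and each correlated more closely with C4-2 siScr R1881 libraries (r of at least 0.933 across genes) than with LNCaP vehicle libraries (at most 0.905). Dual knockdown lowered KDM1A from 108.0 to 52.1 CPM (counts scaled by TMM library size, group means) in LNCaP and from 143 to 16.6 CPM in C4-2. KDM7A fell from 59.6 to 31.1 CPM in LNCaP and from 121 to 21.5 CPM in C4-2. The fall was larger in C4-2 for both genes in edgeR's quasi-likelihood test (difference of log2FC -2.04, adjusted p = 2.36e-09 for KDM1A, and -1.56, adjusted p = 6.06e-07 for KDM7A). The luminal keratins KRT8 and KRT18, named after their values were seen, had group means of 277 to 1458 CPM and of 179.5 to 677 CPM. The 3 basal markers summed to at most 1.62 CPM, the 3 neuroendocrine markers to at most 3.79 CPM, and the 4 fibroblast and endothelial markers to 6.83 to 36.8 CPM, nearly all of it COL1A1. COL1A2, DCN and PECAM1 were each at 0 in 14 of 18 libraries. That sum moved with the groups, from 16 to 17.4 CPM with vehicle to 6.83 to 10.9 CPM with R1881 and 10.3 to 12.7 CPM with dual knockdown in LNCaP. In C4-2 it was 25.4 to 36.1 CPM with vehicle, 17.2 to 24.5 CPM with R1881 and 27.1 to 36.8 CPM with dual knockdown, and its part in the results was not tested. Fewer cells of a type and less RNA per cell cannot be told apart in such bulk libraries.

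Levels of different genes were compared per length, in RPKM (CPM per kilobase of the counted exons). These lengths include exon bases shared with genes on the opposite strand, such as 41.4% for CERS6 and 20.4% for CERS2 (with SETDB1). The effect of these shared bases on the order of levels was not tested. DEGS1 was the highest of the 10 genes in all 6 groups. Its group means ran from 91.4 ± 1.78 RPKM (SD, n = 3) in LNCaP vehicle to 304 ± 13.6 RPKM in C4-2 dual knockdown. CERS2, the next highest in 5 of 6 groups, ran over the 6 groups from 27.9 ± 4.09 to 47.8 ± 2.28 RPKM. CERK and SPHK1, the kinases, were the lowest in 5 of 6 groups, at 0.238 ± 0.0622 to 1.98 ± 0.23 RPKM and 0.465 ± 0.0999 to 2.11 ± 0.437 RPKM there. In the sixth group, C4-2 vehicle, SGMS2 was the lowest at 2.62 ± 0.1 RPKM, with SPHK1 at 3.18 ± 0.38 and CERK at 4.12 ± 0.503 RPKM. The ceramide-building genes DEGS1, CERS2 and CERS6 were thus above both kinase genes in every group.

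**Figure D1:**
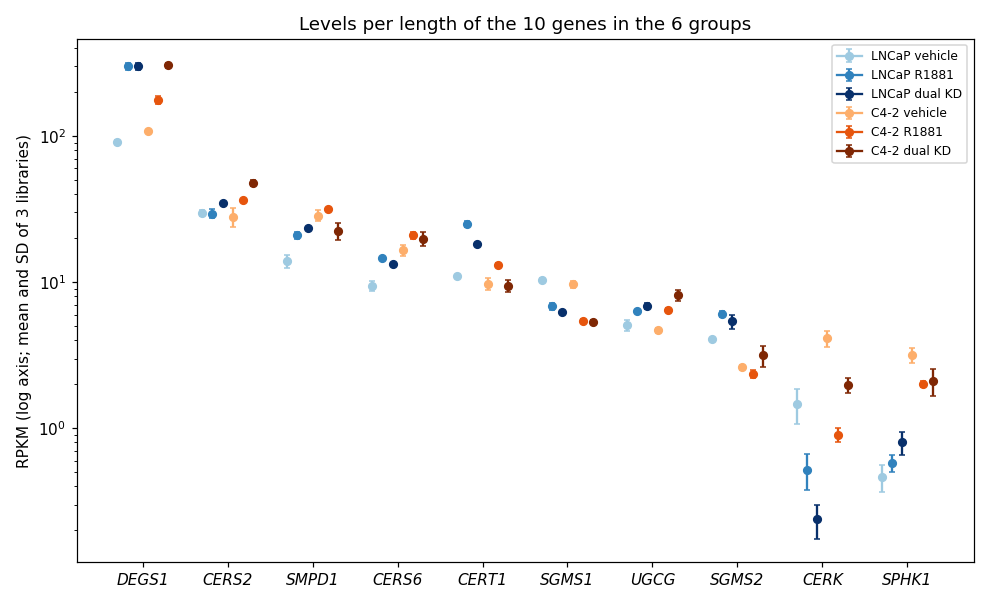
Level per length of each gene (RPKM, log axis) in the 6 groups, as the mean and SD of 3 libraries, with genes ordered by their mean over the groups. DEGS1 lies above the other genes in every group, and CERK spans the widest range, from 0.238 RPKM in LNCaP dual knockdown to 4.12 RPKM in C4-2 vehicle.

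The first question was how R1881 moved these genes in siScr cells of each line. In LNCaP, 8 of 10 were called at an adjusted p under 0.05. Of these, 6 rose (23.5% of the 17162 genes tested rose) and 2 fell (23.2%). In C4-2, 8 of 10 were also called, of which 5 rose (17.1% of 16965 genes) and 3 fell (15.7%). When the change also had to reach 2-fold up or down, the further threshold of the study, 3 of 10 were called in LNCaP (12.3% of genes) and 1 of 10 in C4-2 (9.07%). CERK was the 1 gene past both thresholds in C4-2, was among the 3 in LNCaP, and was among the 8 called in each line. Its R1881 libraries are also those of the knockdown contrast that chose it. The median log2FC of the 10 was 0.42 in LNCaP and 0.21 in C4-2, against -0.04 and -0.02 over all genes tested. Without both libraries that stood apart, 8 of 10 were called in C4-2, where 7595 of 17252 genes tested were.

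Of the 3 genes DEGS1, CERS6 and CERS2, whose enzymes build ceramide, DEGS1 changed the most with R1881 in both lines. DEGS1 (ENSG00000143753, chr1:224175756-224193441, GRCh38) desaturates dihydroceramide, the last step of de novo ceramide synthesis. In LNCaP it stood at 225, 234 and 231 CPM with vehicle and at 714, 755 and 794 CPM with R1881. In C4-2 the values were 275.5, 265 and 275 CPM with vehicle and 475, 423 and 435 CPM with R1881. The groups did not overlap in either line, and the lowest R1881 library of LNCaP lay above the highest of C4-2. The log2FC was 1.68 (SE 0.058, adjusted p = 1.73e-13) in LNCaP, a 3.2-fold rise, and 0.67 (SE 0.077, adjusted p = 1.08e-05) in C4-2.

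CERS6 and CERS2 are ceramide synthases, which join a fatty acyl chain to the sphingoid base. CERS6 favours C16 chains and CERS2 very long ones. CERS6 (ENSG00000172292, chr2:168455862-168775137) rose with R1881 in LNCaP from 67.6, 74.0 and 63.7 CPM to 105, 108 and 107 CPM (log2FC 0.60, SE 0.066, adjusted p = 8.87e-07). In C4-2 it went from 119.9, 129 and 109 CPM to 154, 143 and 158 CPM (log2FC 0.31, SE 0.092, adjusted p = 0.0198). The rise in C4-2 was less secure, since the call was lost without vehicle replicate 1 (adjusted p = 0.0768), R1881 replicate 1 (0.059) or R1881 replicate 3 (0.0758). Counting took no account of strand, and 41.4% of the CERS6 exon bases are shared with the antisense gene CERS6-AS1. Reads there could not be assigned to 1 of the genes by strand. Whether they were counted for CERS6 or left out was not tested.

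CERS2 (ENSG00000143418, chr1:150960583-150975004) gave 132, 137 and 146 CPM with vehicle and 145, 126 and 138 CPM with R1881 in LNCaP, where the groups overlapped (log2FC -0.06, adjusted p = 0.491). In C4-2 it rose from 143, 138 and 108 CPM to 171, 166 and 169 CPM (log2FC 0.33, SE 0.078, adjusted p = 0.0045). The vehicle library at 108 CPM was replicate 3, and without it the log2FC was 0.27 (adjusted p = 0.0125). Of its exon bases, 20.4% are shared with SETDB1 and 16.8% with ENSG00000259357, both on the opposite strand.

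**Figure D2:**
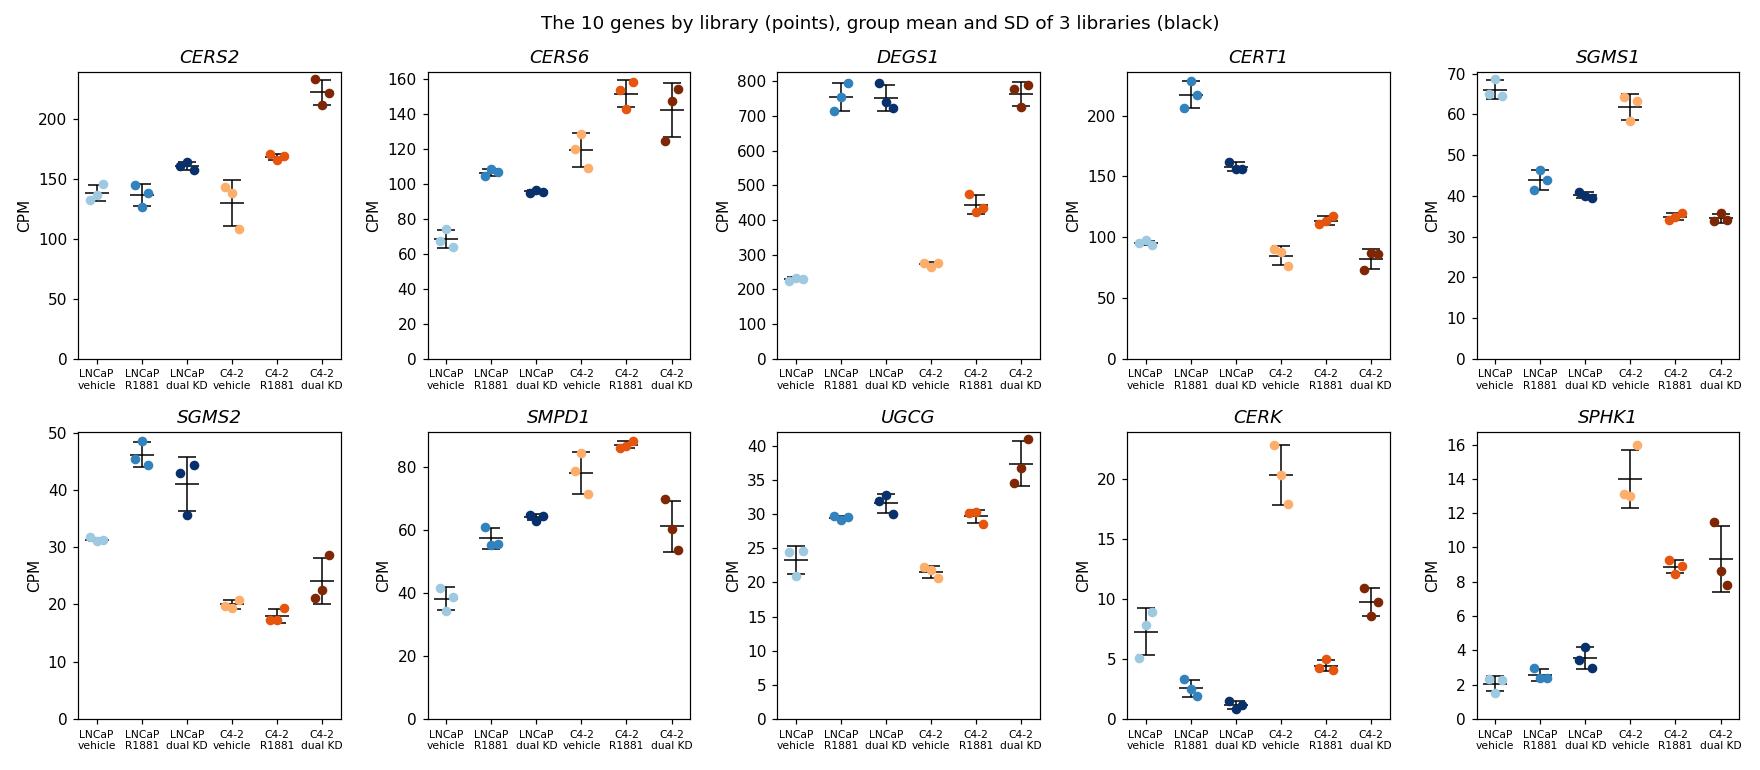
CPM of each of the 10 genes in each library (coloured points), with the group mean and SD of 3 libraries in black, on axes that start at 0. DEGS1 and CERT1 separate the R1881 from the vehicle libraries of LNCaP most clearly, and CERK is lower with R1881 in both lines.

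CERT1 carries ceramide from the endoplasmic reticulum to the Golgi, where sphingomyelin is made. CERT1 (ENSG00000113163, chr5:75356345-75512138) rose in LNCaP from 94.9, 97.3 and 93.6 CPM to 206, 228 and 217 CPM, a 2.23-fold change (log2FC 1.15, SE 0.059, adjusted p = 4.31e-11). In C4-2 it rose from 90.5, 87.8 and 76.3 CPM to 111, 113 and 117 CPM (log2FC 0.38, SE 0.087, adjusted p = 0.00383). The vehicle libraries of both lines lay between 76.3 and 97.3 CPM, whereas with R1881 the LNCaP libraries lay between 206 and 228 CPM and the C4-2 libraries between 111 and 117 CPM.

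SGMS1 and SGMS2 encode the sphingomyelin synthases, of the Golgi and mainly of the plasma membrane, which make sphingomyelin from ceramide. With R1881 they moved in opposite directions in LNCaP. The 250 bases before their RefSeq start sites (GRCh38.p14) are shown because the pair encode the same activity yet differed in response. Capitals mark the GC box GGGCGG on either strand, and SGMS2 has none in this window. SGMS1 lies at chr10:50623957-50624206 on the minus strand, and SGMS2 at chr4:107824313-107824562 on the plus strand.
SGMS1: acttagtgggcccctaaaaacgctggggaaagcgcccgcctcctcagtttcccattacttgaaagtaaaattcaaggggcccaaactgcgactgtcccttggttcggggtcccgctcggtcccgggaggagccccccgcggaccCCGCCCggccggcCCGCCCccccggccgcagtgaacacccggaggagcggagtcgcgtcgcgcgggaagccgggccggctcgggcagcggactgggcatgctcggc
SGMS2: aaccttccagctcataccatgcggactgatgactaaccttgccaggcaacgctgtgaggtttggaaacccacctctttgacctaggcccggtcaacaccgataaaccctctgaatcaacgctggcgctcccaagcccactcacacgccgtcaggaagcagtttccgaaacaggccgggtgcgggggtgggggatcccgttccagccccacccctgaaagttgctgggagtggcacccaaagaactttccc
The SGMS1 window has 70.0% G and C, 28 CpG and 2 GC boxes. The SGMS2 window has 58.8% G and C and 12 CpG, near the medians of 58.0% and 11 over 27305 promoters. A GC box was found in 42.3% of those promoters. The androgen receptor half-site AGAACA was in neither window, and in 12.4% of those promoters. Whether either motif has a part in the response was not tested. RefSeq promoters were matched for 8 of the 10 genes.

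SGMS1 (ENSG00000198964, chr10:50305586-50625163) fell in LNCaP from 65.1, 68.7 and 64.5 CPM to 41.5, 46.3 and 43.9 CPM (log2FC -0.63, SE 0.068, adjusted p = 9.26e-07). In C4-2 it fell from 64.3, 58.3 and 63.3 CPM to 34.1, 34.9 and 35.9 CPM (log2FC -0.86, SE 0.09, adjusted p = 4.26e-06). SGMS1 was thus lower with R1881 in all 6 libraries, and its vehicle libraries of both lines lay between 58.3 and 68.7 CPM.

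SGMS2 (ENSG00000164023, chr4:107824563-107915047) rose in LNCaP from 31.7, 31.1 and 31.2 CPM to 45.4, 48.5 and 44.3 CPM (log2FC 0.52, SE 0.087, adjusted p = 0.000106). In C4-2 it had 19.8, 19.3 and 20.8 CPM with vehicle and 17.3, 17.3 and 19.3 CPM with R1881 (log2FC -0.17, SE 0.13, adjusted p = 0.341). The C4-2 groups lay side by side without overlap, and SGMS2 was lower in C4-2 than in LNCaP in each of the 3 conditions. Of the SGMS2 exon bases, 7.86% are shared with CYP2U1-AS1 on the opposite strand, and for SGMS1, CERT1 and SPHK1 such shared bases made up 1.34% to 3.22%.

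SMPD1 is the acid sphingomyelinase, which releases ceramide from sphingomyelin in the lysosome. SMPD1 (ENSG00000166311, chr11:6390431-6394998) rose in LNCaP from 41.6, 34.4 and 38.7 CPM to 61.1, 55.2 and 55.8 CPM (log2FC 0.56, SE 0.078, adjusted p = 1.6e-05). In C4-2 it gave 78.9, 84.7 and 71.4 CPM with vehicle and 86.3, 86.8 and 88.5 CPM with R1881 (log2FC 0.11, SE 0.089, adjusted p = 0.358). All C4-2 vehicle libraries were already above the LNCaP libraries with R1881.

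UGCG, CERK and SPHK1 take ceramide or its product sphingosine into other lipids. UGCG (ENSG00000148154, chr9:111896766-111935369) makes glucosylceramide, the first step to the glycosphingolipids. It rose in LNCaP from 24.4, 21.0 and 24.6 CPM to 29.7, 29.2 and 29.6 CPM (log2FC 0.31, SE 0.082, adjusted p = 0.0052) and in C4-2 from 22.2, 21.9 and 20.6 CPM to 30.2, 30.3 and 28.6 CPM (log2FC 0.43, SE 0.1, adjusted p = 0.0045). The 2 lines were alike in level, with group means of 29.5 and 29.7 CPM after R1881.

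CERK (ENSG00000100422, chr22:46684411-46738261) is ceramide kinase, which makes ceramide 1-phosphate. It fell with R1881 in LNCaP from 5.1, 7.81 and 8.9 CPM to 3.3, 2.51 and 1.91 CPM (log2FC -1.54, SE 0.24, adjusted p = 5.71e-05). In C4-2 it fell from 22.8, 20.3 and 17.9 CPM to 4.24, 5.0 and 4.12 CPM (log2FC -2.24, SE 0.14, adjusted p = 1.29e-08), to 0.212 of the vehicle level. The groups did not overlap in either line. These comparisons share their R1881 libraries with the knockdown contrast that singled out CERK.

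SPHK1 (ENSG00000176170, chr17:76376584-76387860) is sphingosine kinase 1, which makes sphingosine 1-phosphate. In LNCaP it was low, at 2.34, 1.54 and 2.28 CPM with vehicle and 2.97, 2.37 and 2.37 CPM with R1881 (log2FC 0.32, SE 0.24, adjusted p = 0.297). In C4-2 it fell from 13.1, 13 and 16 CPM to 9.25, 8.47 and 8.92 CPM (log2FC -0.66, SE 0.16, adjusted p = 0.00537). Removing each library's trend with GC content moved that value to -0.30 (adjusted p = 0.144).

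The same correction moved other R1881 values in C4-2, to 0.24 (adjusted p = 0.00644) for CERT1 and 0.17 (0.0459) for CERS6, and brought SMPD1 (0.32, 0.00182) and SGMS2 (-0.31, 0.028) past the threshold. The leukocyte markers PTPRC, CD3E and CD68 summed to 1.89 to 3.57 CPM in the C4-2 vehicle libraries and to at most 0.738 CPM in the other C4-2 libraries. PTPRC made up most of that sum and CD3E was at 0 in 15 of 18 libraries. Their part in the R1881 results was not tested.

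**Figure D3:**
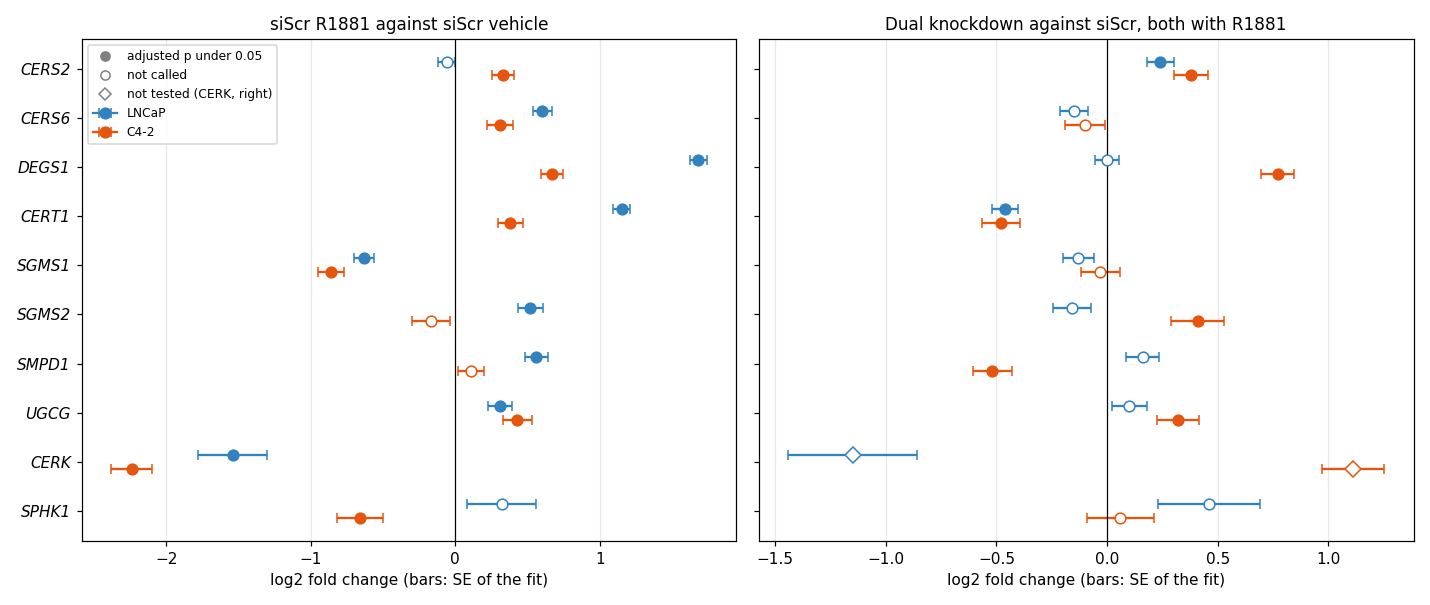
Log2 fold change of each gene with R1881 (left) and with dual knockdown (right) in LNCaP (blue) and C4-2 (orange), with bars for the SE of the fit. Filled circles have an adjusted p under 0.05, open circles do not, and diamonds mark CERK under dual knockdown, which was not tested. DEGS1 and CERT1 rise more with R1881 in LNCaP than in C4-2, while under dual knockdown DEGS1 rises in C4-2 and is at 0.00 in LNCaP.

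Whether R1881 acted alike in the lines was tested as an interaction over all 18 libraries. The response differed for 6 of 10 genes, and for 7 without both libraries that stood apart (3322 of 19138 genes tested). It was lower in C4-2 for 5 (7.95% of 18684 genes) and higher for 1 (6.05%). DEGS1 differed by -1.02 (SE 0.092, adjusted p = 6.03e-08) and CERT1 by -0.79 (SE 0.099, adjusted p = 6.89e-06), both of which rose in each line but less in C4-2. SGMS2 differed by -0.70 (SE 0.15, adjusted p = 0.00277) and SMPD1 by -0.46 (SE 0.12, adjusted p = 0.0117). SPHK1 differed by -1.0 (SE 0.28, adjusted p = 0.0187), a call that was lost without LNCaP vehicle replicate 2 (-0.80, adjusted p = 0.0731) or LNCaP siScr R1881 replicate 1 (-0.88, adjusted p = 0.062). CERS2 was the gene with the higher response in C4-2, by 0.37 (SE 0.098, adjusted p = 0.0119). For CERK the difference was -0.70 (SE 0.29, adjusted p = 0.115), for SGMS1 -0.24 (0.129), for UGCG 0.10 (0.628) and for CERS6 -0.31 (0.0633). The last was past the threshold without both libraries that stood apart (-0.32, adjusted p = 0.0148), and with the GC trend removed (-0.38, adjusted p = 0.000886), as was SGMS1 (-0.30, adjusted p = 0.0117).

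The second question was what dual knockdown of KDM1A and KDM7A did to these genes in cells with R1881. Dual knockdown and siScr R1881 libraries were compared, so the siScr R1881 libraries also served in the R1881 comparisons. Leaving CERK aside, 2 of 9 genes were called in LNCaP, 1 higher (8.27% of genes tested) and 1 lower (5.89%). In C4-2, 6 of 9 were called, 4 higher (12.7%) and 2 lower (10.8%). No called gene of the 9 changed by 2-fold or more in either line, as 0.286% of genes did in LNCaP and 3.94% in C4-2. The median log2FC of the 9 was 0.00 in LNCaP and 0.06 in C4-2, against 0.00 and 0.01 over all genes. Without both libraries that stood apart, 6 of 9 were called in C4-2, where 5761 of 17252 genes tested were. Leaving out 1 library gave 4 to 6, and 2482 to 4668 over all genes.

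CERK stood at 3.3, 2.51 and 1.91 CPM with siScr and at 1.48, 0.863 and 1.18 CPM with dual knockdown in LNCaP, from 16 to 60 counts per library. In C4-2 it stood at 4.24, 5.0 and 4.12 CPM with siScr and at 10.9, 8.62 and 9.74 CPM with dual knockdown, from 67 to 201 counts per library. Every LNCaP library was lower and every C4-2 library higher with the knockdown. The log2FC was -1.15 (SE 0.29) in LNCaP and 1.11 (SE 0.14) in C4-2, which are the values that chose the set. Leaving out 1 library gave -1.33 to -0.91 in LNCaP and 1.03 to 1.20 in C4-2, and leaving out both libraries that stood apart gave 1.04 in C4-2. With dual knockdown CERK in C4-2 remained below its vehicle libraries, at 8.62 to 10.9 CPM against 17.9 to 22.8 CPM.

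CERT1 fell in both lines, from 206, 228 and 217 CPM to 162, 156 and 156 CPM in LNCaP and from 111, 113 and 117 CPM to 73.0, 87.3 and 86.3 CPM in C4-2. The log2FC was -0.46 (SE 0.058, adjusted p = 0.000769) in LNCaP and -0.48 (SE 0.085, adjusted p = 0.00105) in C4-2. In LNCaP all dual knockdown libraries stayed above those with vehicle, and in C4-2 they overlapped with them. The C4-2 overlap rested on vehicle replicate 3 (76.3 CPM), which stood apart from its group. Vehicle replicates 1 and 2 (90.5 and 87.8 CPM) lay above all C4-2 dual knockdown libraries.

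DEGS1 went in C4-2 from 475, 423 and 435 CPM to 777, 725 and 789.8 CPM with dual knockdown (log2FC 0.77, SE 0.076, adjusted p = 1.05e-05). In LNCaP it had 714, 755 and 794 CPM with siScr and 794, 741 and 722 CPM with dual knockdown (log2FC 0.00, SE 0.055, adjusted p = 0.991). The C4-2 dual knockdown libraries thus overlapped with the LNCaP libraries with R1881, whereas the siScr R1881 libraries of the lines did not overlap.

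CERS2 rose in both lines, from 145, 126 and 138 CPM to 161, 164 and 158 CPM in LNCaP and from 171, 166 and 169 CPM to 233, 212 and 222 CPM in C4-2. The log2FC was 0.24 (SE 0.061, adjusted p = 0.0172) in LNCaP and 0.38 (SE 0.077, adjusted p = 0.00244) in C4-2. The LNCaP call was lost without siScr R1881 replicate 2 (0.19, adjusted p = 0.0918) or 3 (0.24, 0.0681), or dual knockdown replicate 1 (0.23, 0.059) or 2 (0.23, 0.0821), and with the GC trend removed (0.16, 0.0559). CERS6 was at 95.1, 96.8 and 95.7 CPM with dual knockdown in LNCaP (log2FC -0.15, adjusted p = 0.129) and at 125, 148 and 154 CPM in C4-2 (log2FC -0.10, adjusted p = 0.452).

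SMPD1 fell in C4-2 from 86.3, 86.8 and 88.5 CPM to 69.8, 60.5 and 53.7 CPM (log2FC -0.52, SE 0.088, adjusted p = 0.00071). In LNCaP it had 61.1, 55.2 and 55.8 CPM with siScr and 65.0, 63.1 and 64.5 CPM with dual knockdown (log2FC 0.16, SE 0.076, adjusted p = 0.162). With the knockdown SMPD1 in the 2 lines overlapped, which it did not with vehicle or with siScr and R1881. That overlap rested on C4-2 dual knockdown replicate 1 (69.8 CPM), which stood apart from its group. The C4-2 values of 60.5 and 53.7 CPM lay below all LNCaP libraries with dual knockdown.

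SGMS2 rose in C4-2 from 17.3, 17.3 and 19.3 CPM to 21.1, 22.5 and 28.6 CPM (log2FC 0.41, SE 0.12, adjusted p = 0.0283). The highest of these was replicate 3, and without it the value was 0.27 (adjusted p = 0.138). The call was also lost without siScr R1881 replicate 1 (0.38, adjusted p = 0.0948) or 2 (0.37, adjusted p = 0.1). UGCG rose in C4-2 from 30.2, 30.3 and 28.6 CPM to 34.6, 36.7 and 41.0 CPM (log2FC 0.32, SE 0.094, adjusted p = 0.024). Its call was lost without siScr R1881 replicate 1 (0.33, adjusted p = 0.0534), 2 (0.33, 0.0608) or 3 (0.29, 0.101), or dual knockdown replicate 2 (0.32, 0.0546) or 3 (0.25, 0.103). In LNCaP the log2FC was -0.16 (adjusted p = 0.219) for SGMS2 and 0.10 (adjusted p = 0.437) for UGCG.

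SGMS1 and SPHK1 were not called in either line. SGMS1 had a log2FC of -0.13 (SE 0.07, adjusted p = 0.253) in LNCaP and -0.03 (SE 0.089, adjusted p = 0.841) in C4-2. SPHK1 had 3.47, 4.21 and 2.95 CPM with dual knockdown in LNCaP (log2FC 0.46, SE 0.23, adjusted p = 0.192) and 11.5, 8.62 and 7.83 CPM in C4-2 (log2FC 0.06, SE 0.15, adjusted p = 0.837). The SPHK1 libraries of the groups overlapped in both lines.

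The knockdown response differed between the lines for 3 of 9 genes, where 2028 of 18684 genes tested differed. Without both libraries that stood apart, 3 of 9 were again called, where 4138 of 19138 genes tested were. With all libraries, the response was higher in C4-2 for DEGS1 by 0.79 (SE 0.09, adjusted p = 8.92e-06) and for SGMS2 by 0.59 (SE 0.15, adjusted p = 0.0112), where 6.97% of genes were higher. It was lower for SMPD1, at -0.66 (SE 0.12, adjusted p = 0.000872), where 3.88% of genes were lower. The SGMS2 difference was 0.45 (adjusted p = 0.0503) without C4-2 dual knockdown replicate 3. The CERT1 difference was 0.00 (adjusted p = 1), too near 0 for an SE, which was derived from the log2FC and F. The difference for CERK was 2.28 (SE 0.32), not tested. The knockdown of both targets was itself deeper in C4-2, as given above, and the part of this in the results was not tested.

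The third comparison set the lines against each other in siScr cells. With vehicle, 6 of 10 genes differed, 5 higher in C4-2 (29.4% of 18684 genes) and 1 lower (29.5%), and 3 of 10 by 2-fold or more (24.2%). SPHK1 differed most, at a log2FC of 2.77 (SE 0.2, adjusted p = 1.36e-10), from 2.05 ± 0.441 CPM (SD, n = 3) in LNCaP to 14 ± 1.68 CPM in C4-2. CERK was higher by 1.47 (SE 0.19, adjusted p = 6.41e-07), from 7.27 ± 1.95 to 20.3 ± 2.49 CPM. The CERK comparison with vehicle shares no library with the knockdown contrasts. SMPD1 was higher by 1.05 (SE 0.087, adjusted p = 1.11e-09), CERS6 by 0.81 (SE 0.079, adjusted p = 1.59e-08) and DEGS1 by 0.24 (SE 0.065, adjusted p = 0.00291). SGMS2 was lower, at -0.67 (SE 0.11, adjusted p = 2.27e-05). With the GC trend removed the value was -0.42 (adjusted p = 0.000373) for SGMS2 and 0.40 (adjusted p = 5.9e-06) for DEGS1, and CERS2 passed the threshold (-0.13, adjusted p = 0.0396). CERT1 (-0.16, adjusted p = 0.0651) passed it without C4-2 dual knockdown replicate 1 (-0.16, adjusted p = 0.0283), and when at least 10 counts were asked of every library (-0.22, adjusted p = 0.013), but gave 0.05 (adjusted p = 0.416) with the GC trend removed. The leukocyte markers summed to at most 0.346 CPM in LNCaP vehicle against 1.89 to 3.57 CPM in C4-2 vehicle, and their part in these differences was not tested.

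With R1881, 9 of 10 genes differed between the lines, 5 higher in C4-2 (28.6%) and 4 lower (29.7%). DEGS1 was higher in C4-2 with vehicle and lower with R1881 (log2FC -0.77, SE 0.064, adjusted p = 1.1e-09). CERT1 was lower, at -0.95 (SE 0.069, adjusted p = 1.32e-10), as were SGMS2, at -1.37 (SE 0.1, adjusted p = 3.02e-10), and SGMS1, at -0.34 (SE 0.072, adjusted p = 0.00035). SPHK1 was higher by 1.77 (SE 0.19, adjusted p = 6.69e-08), CERK by 0.77 (SE 0.22, adjusted p = 0.0042), SMPD1 by 0.59 (SE 0.083, adjusted p = 2.55e-06), CERS6 by 0.50 (SE 0.076, adjusted p = 8.92e-06) and CERS2 by 0.29 (SE 0.068, adjusted p = 0.000864). The CERK value here rests on the siScr R1881 libraries, which are also those of the knockdown contrast that chose it. Of the other 9 genes, 8 were called. UGCG gave 0.00 (SE 0.079, adjusted p = 1). Without both libraries that stood apart, 6 of 10 genes differed with vehicle and 9 of 10 with R1881. Over all 19138 genes tested in that setting, 11477 differed with vehicle and 11612 with R1881.

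For order over all 6 groups, CERK ran from C4-2 vehicle (20.3 CPM) through C4-2 dual knockdown (9.75), LNCaP vehicle (7.27), C4-2 R1881 (4.45) and LNCaP R1881 (2.57) to LNCaP dual knockdown (1.17). Only C4-2 dual knockdown and LNCaP vehicle overlapped among its neighbours in that order. DEGS1 ran from C4-2 dual knockdown (764 CPM) through LNCaP R1881 (754) and LNCaP dual knockdown (752), which overlapped, to C4-2 R1881 (444), C4-2 vehicle (272) and LNCaP vehicle (229.9), which did not.

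The other genes of the pathway were taken as a list of 65, of which 56 were tested in LNCaP and 55 in C4-2. With R1881, 15 rose and 12 fell in LNCaP, and 16 rose and 12 fell in C4-2, with a median log2FC of 0.04 and 0.03. Over all genes tested, 23.5% rose and 23.2% fell in LNCaP, and 17.1% rose and 15.7% fell in C4-2. Several of the largest changes were in the same direction in the lines. PLPP1, a lipid phosphate phosphatase that can act on sphingosine 1-phosphate and ceramide 1-phosphate, rose 4.65-fold with R1881 in LNCaP (40.5 to 193 CPM, adjusted p = 2.65e-14). In C4-2 the rise was 3.59-fold (39.8 to 147 CPM, adjusted p = 7.19e-10). SMPD2, a neutral sphingomyelinase, rose by 1.03 and 1.29 on the log2 scale (adjusted p = 4.38e-07 and 1.62e-07). ASAH1, the acid ceramidase that turns ceramide into sphingosine, rose by 0.85 (adjusted p = 4.59e-09) and 1.22 (adjusted p = 1.27e-08). PLPP3, of the same phosphatase family as PLPP1, rose by 0.96 and 0.79 (adjusted p = 4.06e-05 and 0.000174). At the start of the pathway, SPTLC3, a subunit of serine palmitoyltransferase, fell from 33.3 to 8.02 CPM in LNCaP (adjusted p = 1.75e-11) and from 12.6 to 3.53 CPM in C4-2 (adjusted p = 9.75e-07). DEGS2, the paralogue of DEGS1 that also makes phytoceramide, fell from 1.98 to 0.568 CPM in LNCaP (adjusted p = 0.00111) and from 9.46 to 3.17 CPM in C4-2 (adjusted p = 2.15e-05), in both lines opposite to DEGS1. S1PR3, a sphingosine 1-phosphate receptor, fell by 1.28 on the log2 scale in LNCaP (adjusted p = 6.63e-06). In C4-2, PLPP2 fell by 1.48 (adjusted p = 0.000146) and UGT8, which makes galactosylceramide, by 0.98 (adjusted p = 1.73e-06).

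**Figure D4:**
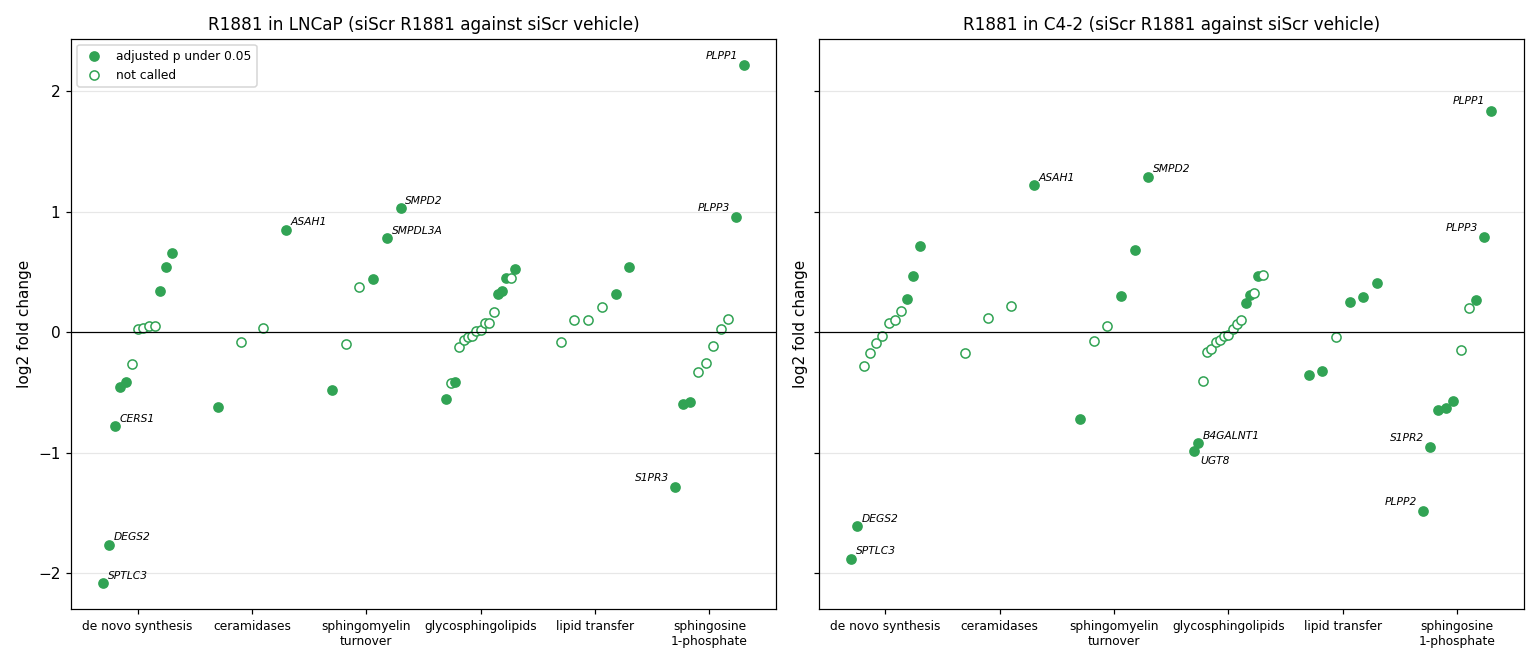
Log2 fold change with R1881 in LNCaP (left) and C4-2 (right) of the other tested pathway genes, 1 point per gene, grouped by role. Filled points have an adjusted p under 0.05, and names are given where the change also exceeds 0.75. PLPP1, SMPD2 and ASAH1 lie high and SPTLC3 and DEGS2 low in both panels.

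Under dual knockdown, 9 of the 56 rose and 3 fell in LNCaP, and 18 of the 55 rose and 10 fell in C4-2, with a median log2FC of 0.08 and -0.06. Over all genes tested, 8.27% rose and 5.89% fell in LNCaP, and 12.7% rose and 10.8% fell in C4-2. PLPP1 rose in both lines, by 0.40 (adjusted p = 0.00185) in LNCaP and by 0.93 (adjusted p = 3.46e-06) in C4-2. PLPP2 rose as well, from 43.7 to 56.7 CPM in LNCaP (adjusted p = 0.016) and from 2.56 to 11.1 CPM in C4-2 (adjusted p = 1.29e-05). In C4-2, DEGS2 rose from 3.17 to 7.13 CPM (adjusted p = 0.00072). ST3GAL5, the ganglioside GM3 synthase, fell there from 15.6 to 7.46 CPM (adjusted p = 2.93e-05), CERS4 from 33.1 to 20.2 CPM (adjusted p = 0.0016) and NEU1, a lysosomal sialidase, from 87.6 to 58.2 CPM (adjusted p = 0.000227). The called genes in LNCaP included CPTP, a ceramide 1-phosphate transfer protein (0.48, adjusted p = 0.00624), and SPTLC2 (-0.28, adjusted p = 0.0183). DEGS2 was at 0.568 CPM with siScr and 1.18 CPM with dual knockdown there (log2FC 1.02, adjusted p = 0.0951), and its difference between the lines was 0.16 (adjusted p = 0.883). The response of CERS4 differed between the lines by -0.87 (adjusted p = 0.00143) and that of PLPP2 by 1.76 (adjusted p = 5e-05).

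Between the lines with vehicle, 21 of 58 were higher and 17 lower in C4-2, where 29.4% of all genes tested were higher and 29.5% lower. UGT8 was at 0.811 CPM in LNCaP and 54.3 CPM in C4-2 (log2FC 6.06, adjusted p = 5.35e-18), and GALC, the galactosylceramidase, at 0.145 and 7.83 CPM (adjusted p = 8.6e-12). CERS1, a further ceramide synthase, was at 4.63 CPM in LNCaP and 0.287 CPM in C4-2 (adjusted p = 6.91e-08), and PLPP2 at 64.1 and 6.84 CPM (adjusted p = 4.37e-13). Each of these differences was larger on the log2 scale than that of SPHK1, the largest among the 10 genes.

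The genes whose log2 CPM was most like that of CERK over the 18 libraries, among 14940 genes with a mean of at least 1 CPM, were PDE4D (Pearson r = 0.956), HOXC13 (0.954), SPRING1 (0.95), TUB (0.94) and CORO1A (0.94). The libraries share 6 groups and their depths, so these are descriptions. PDE4D had group means of 17.1, 5.87 and 3.41 CPM in LNCaP with vehicle, R1881 and dual knockdown, and of 29.2, 12.7 and 17.6 CPM in C4-2. Like CERK it was lowest in LNCaP dual knockdown and highest in C4-2 vehicle, as were SPRING1 and CORO1A. These genes were picked for a profile like that of CERK, knockdown libraries included, so this likeness follows from the choice. Within the 10 genes, SPHK1 was the most like CERK (r = 0.61) and CERT1 the least (r = -0.811).

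**Figure D5:**
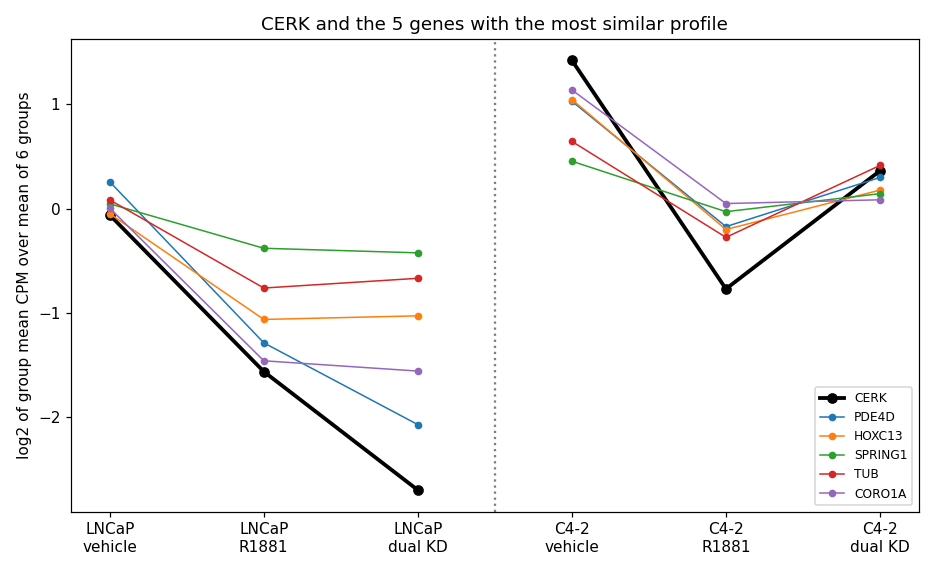
Group mean CPM of CERK (black) and of the 5 genes with the most similar profile, as log2 of the ratio to the mean of the 6 groups, with LNCaP left and C4-2 right of the dotted line. All 6 genes are highest in C4-2 vehicle, and CERK and PDE4D lie furthest below their mean in LNCaP dual knockdown.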

How the data were processed

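RNA Seq of 18 libraries (6 groups of 3) was used. The authors trimmed reads with TrimGalore, aligned them to GRCh38 with STAR and counted read pairs per Ensembl 83 gene with featureCounts 1.5.0-p1, whose only stated option does not use strand. The deposited values are raw counts per gene. Symbols and positions were taken from GENCODE 29, and promoters from RefSeq GRCh38.p14. The 10 genes and the gene lists were chosen with earlier results of these data known. Counts were tested in edgeR 4.0.16 (R 4.3.3) with TMM factors, filterByExpr (at least 10 counts, 15 in total) and the quasi-likelihood F-test, two-sided. A group model was fitted for the 9 LNCaP libraries, for the 9 C4-2 libraries, and for all 18 for differences between the lines. Every adjusted p is by the Benjamini-Hochberg method over all genes tested, and a gene is called under 0.05. The fits were tested on simulated data. CPM used TMM library sizes, and RPKM the gene lengths in the files. From the wider list, the 5 largest called increases and decreases per comparison with a mean of at least 1 CPM could be named. Nothing in the labels says that replicates came from separate cultures, so p-values measure the spread among these libraries. The total counts limit CERK and SPHK1 most, at 16 to 60 counts per library for CERK in LNCaP with R1881. Alternatives were RLE factors, DESeq2 1.42.0, no count filter, a minimum of 10 counts in each library, fits of only the groups compared, GC trend removal (lowess span 0.3), a replicate block and leaving out libraries. Some marker genes are not reported here.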

Additional observations from a re-analysis of the deposited data

Results flagged for a closer look

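The R1881 response differed between the lines, by the interaction test of the edgeR fit over 18 libraries, for 6 of the 10 genes, 1 higher in C4-2 (6.05% of all genes tested) and 5 lower (7.95%). The difference, as the log2FC in C4-2 minus that in LNCaP, was -1.02 for DEGS1, -1.0 for SPHK1, -0.79 for CERT1, -0.70 for SGMS2, -0.46 for SMPD1 and 0.37 for CERS2. DEGS1 and CERT1 rose in each line, by 1.68 and 1.15 in LNCaP and by 0.67 and 0.38 in C4-2. SGMS2 and SMPD1 were called in LNCaP, and SPHK1 and CERS2 in C4-2.

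The dual knockdown response differed between the lines by 0.79 for DEGS1, 0.59 for SGMS2 and -0.66 for SMPD1 in the same test, where 6.97% of all genes tested were higher and 3.88% lower. For CERK it differed by 2.28, since every library with the knockdown was lower in LNCaP and higher in C4-2, and this difference was not tested because it chose the set of genes. The knockdown of KDM1A and KDM7A was also deeper in C4-2, and its part in these differences was not tested.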

How the results depend on the processing

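Of 596 values of single genes under settings that leave out no single library, 10 changed their call. Of 1044 values with 1 library left out, 18 lost the call and 3 gained it. No value of a gene already called reversed its sign in either set. Values not called could, as for SMPD1 under dual knockdown in LNCaP, at 0.16 and at -0.08 with the GC trend removed. The number of the 9 genes called under dual knockdown in LNCaP was 2, but 1 with the GC trend removed, and 1 to 2 over the left-out libraries. It was 1 without LNCaP siScr R1881 replicate 2 or 3 or LNCaP dual knockdown replicate 1 or 2, the CERS2 call being the one lost. Over all genes, 2431 were called in that comparison, 1131 with the GC trend removed and 839 to 2936 over the left-out libraries. Dual knockdown in C4-2 gave 3983 calls over all genes, and 2482 to 4668 over the left-out libraries, the lowest without siScr R1881 replicate 3. The knockdown interaction gave 2028 calls, 1272 to 3538 over the left-out libraries, and 4138 without both libraries that stood apart, an alternative chosen after seeing the data. The cause was not tested. Libraries with the same replicate number did not deviate together more than others (correlations of -0.0912 to 0.0808, against -0.125 to 0.121 for other pairs). No pairing by number was seen. Each deviation is from a mean of 3 libraries, so the check cannot exclude one. With the replicate block, 2 of 9 genes were called under dual knockdown in LNCaP and 6 of 9 in C4-2, the same counts as without it, and 2546 and 4322 over all genes. Depth limits CERK and SPHK1 in LNCaP most.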
